A study of Mus musculus with 2 samples.

Results

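Hippocampal nuclei with 1 disrupted copy of Capza2 and wild-type nuclei were examined for 9 transcription factor genes that are known for, or differ between, the fields of the hippocampus: Prox1, Zbtb20, Glis3, Trps1, Pou3f3, Foxp1, Foxp2, Tshz2 and Bcl11b. They were chosen by name, and all 9 of 9 were found among the 32285 genes counted. The study sequenced nuclear RNA from frozen hippocampus of 1 heterozygous knockout (CAPZA2+/-) library and 1 wild-type library, in a study of CAPZA2 and neurodevelopmental disorders. Capza2 encodes an alpha subunit of the actin capping protein, and neither group carries another allele or treatment in the labels. Strain, age, sex and the number of mice per library are not given in the sources used here. Each genotype has a single library and thus no replicate, so every difference is one between 2 libraries and no test was made, and the intervals printed (exact, 95%) cover counting error only.

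Transcription factors of this kind bind DNA through zinc fingers, homeodomains or forkhead domains and hold a neuron in the identity it took on during development. In the mouse hippocampus, Prox1 sets granule cells of the dentate gyrus apart from CA3 pyramidal neurons, Zbtb20 is needed for pyramidal neurons to take on a hippocampal rather than a neighbouring cortical identity, and Bcl11b (Ctip2) marks granule cells and CA1. Foxp2 and Tshz2 are known in the cortex as genes of deep-layer projection neurons, Pou3f3 (Brn1) as a POU factor of cortical progenitors and neurons, Trps1 as a repressor of the GATA family, and Glis3 as a Gli-related zinc finger factor best known from the pancreas.

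After filters on genes and mitochondrial UMIs and removal of the highest doublet scores, 6761 heterozygote and 6089 wild-type nuclei remained, with medians of 5732 and 6655 UMIs per nucleus, from libraries of 62702888 and 58701532 UMIs. The 2 libraries shared 13 barcodes, and 7.56% of heterozygote against 1.35% of wild-type barcodes failed the filters. Capza2 itself was at 67.7 CPM (a gene's UMIs over all UMIs of the nuclei concerned, times 1000000) in the heterozygote and 86.1 CPM in the wild type (log2 ratio -0.35, -0.41 to -0.29). Its ratio was below 0 in 11 of 11 classes, from -1.01 in subicular, entorhinal or cortical excitatory nuclei to -0.11 in microglia. The intervals in CA3, astrocytes, microglia and oligodendrocyte precursors included 0. The nuclei fell into 30 clusters, formed without the 9 genes, and 11 classes named from other markers had at least 100 nuclei in each library. Clusters are named by their class, and a cluster whose CA2 and CA3 markers scored alike keeps both names.

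Prox1 and Glis3 were the granule cell genes of the list. Prox1 lies at chr1:190118035-190170714 and Glis3 at chr19:28258851-28680077 (GRCm38, GENCODE M21), and a promoter of each, 250 bases before to 50 after its start, is shown because both genes were highest in the same class. The sequences come from RefSeq on GRCm38.p6 and run 5′ to 3′ along the gene, and capitals mark each E-box (CANNTG on either strand), the letters that basic helix-loop-helix factors can bind.
Prox1 promoter, chr1:190170778-190171077, strand -: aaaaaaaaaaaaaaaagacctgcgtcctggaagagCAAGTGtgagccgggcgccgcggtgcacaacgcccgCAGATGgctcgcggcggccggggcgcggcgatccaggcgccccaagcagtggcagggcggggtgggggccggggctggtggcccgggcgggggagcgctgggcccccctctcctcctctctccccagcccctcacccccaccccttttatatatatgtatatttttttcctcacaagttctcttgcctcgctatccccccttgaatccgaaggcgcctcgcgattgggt
Glis3 promoter, chr19:28680028-28680327, strand -: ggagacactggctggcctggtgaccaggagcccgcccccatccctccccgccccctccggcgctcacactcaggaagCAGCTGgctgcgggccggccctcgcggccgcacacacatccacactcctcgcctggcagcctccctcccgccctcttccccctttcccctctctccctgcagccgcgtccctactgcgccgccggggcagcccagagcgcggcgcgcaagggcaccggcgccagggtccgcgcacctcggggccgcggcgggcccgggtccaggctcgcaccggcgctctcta
The E-box is common: 72.31% of 32851 promoters of this length held it. Another Prox1 promoter, chr1:190169466-190169765, held 0 E-boxes and is not shown. Of the 9 genes, 7 had an entry in the promoter table. No marked E-box overlaps another motif searched (the forkhead core TGTTTAC, the SOX core AACAAT, the TATA box TATAAA and the CCAAT box, on either strand), and a match is a description of letters, not of binding.

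In dentate granule nuclei Prox1 was at 316 CPM (307 to 325) in the heterozygote and 289 CPM (279 to 299) in the wild type. A UMI of Prox1 was found in 79.9% of heterozygote and 77.4% of wild-type nuclei. CA3 pyramidal nuclei, the neighbouring field, had 4.41 CPM (2.61 to 6.96) in the heterozygote and 1.28 CPM (0.348 to 3.27) in the wild type, and CA1 pyramidal nuclei had 8.54 and 7.21 CPM in that order. The granule level was 71.8-fold that of CA3 in the heterozygote and 226-fold in the wild type, with only 18 and 4 UMIs behind the CA3 values. Both libraries thus placed Prox1 highest in the dentate gyrus and lowest in the field next to it.

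Oligodendrocytes came second for Prox1, at 238 CPM (218 to 259) in the heterozygote and 229 CPM (206 to 254) in the wild type. They are not a field of the hippocampus, and Prox1 is known to act in oligodendrocyte differentiation. Their nuclei are shallow (median 1752 UMIs in the heterozygote and 1846 in the wild type), and 34.5% of heterozygote and 33.2% of wild-type nuclei had a UMI. With each nucleus thinned to 1000 UMIs these shares were 20.6% of heterozygote and 18.2% of wild-type nuclei, against 27.6% of heterozygote and 23.95% of wild-type nuclei among granule nuclei and 0.883% of heterozygote and 0.433% of wild-type nuclei in CA1. Microglia, which stem from another lineage, had 83.4 CPM (59.9 to 113) in the heterozygote and 67.96 CPM (43.98 to 100.3) in the wild type at a median of 1457 UMIs in the heterozygote and 1462 in the wild type, with a UMI in 10.2% of heterozygote and 9.75% of wild-type nuclei. The part of free RNA in that value was not tested. The summed level of the 7 granule markers, none of them one of the 9 genes, was 1629.6 CPM in the heterozygote and 1435 CPM in the wild type in microglia and 3000.2 CPM in the heterozygote and 3232 CPM in the wild type in oligodendrocytes, against 4667 CPM in the heterozygote and 4597 CPM in the wild type in granule nuclei. The list therefore does not set granule nuclei far apart from oligodendrocytes.

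Glis3 was at 801 CPM (787 to 816) in the heterozygote and 713 CPM (698 to 729) in the wild type in granule nuclei, with a UMI in 92.7% of heterozygote and 89.9% of wild-type nuclei. Astrocytes held the next level, 475 CPM (434 to 519) in the heterozygote and 505 CPM (457 to 557) in the wild type, although their median depth was only 2610.0 UMIs in the heterozygote and 2676 in the wild type. Its level was far lower in the pyramidal fields, with 1.96 and 1.598 CPM in CA3 and 10.8 and 6.05 CPM in CA1 for the heterozygote and the wild type. Of the oligodendrocytes, 1.504% of heterozygote and 0.375% of wild-type nuclei had a UMI, a class where Prox1 was high. Across the 22 values of 11 classes in 2 libraries the log2 levels of Prox1 and Glis3 correlated with r = 0.53, a description of points that share libraries.

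Zbtb20, at chr16:42875881-43642602, spanned fields and glia. Its level was 4239.6 CPM (4175 to 4305) in the heterozygote and 4164 CPM (4105 to 4224) in the wild type in the CA2/CA3 cluster, 3899 CPM (3839 to 3960.3) in the heterozygote and 3928 CPM (3859 to 3998) in the wild type in CA3 and 3853 CPM (3822 to 3884) in the heterozygote and 3922 CPM (3885 to 3959.7) in the wild type in granule nuclei. Astrocytes were in the same range at 3962 CPM (3842 to 4085) in the heterozygote and 3992 CPM (3854 to 4133) in the wild type, and the 95% intervals of astrocytes and CA3 overlapped in both libraries. CA1 lay in the middle of the order, with 2066 CPM (2038 to 2094) in the heterozygote and 1977 CPM (1949.8 to 2004) in the wild type. The lowest class in both libraries was the subicular, entorhinal or cortical excitatory one, at 266 CPM (244 to 288) in the heterozygote and 205 CPM (191 to 219) in the wild type, followed by deep-layer excitatory nuclei at 549.9 and 491 CPM in the heterozygote and the wild type. Both libraries thus had more Zbtb20 in the granule and CA classes than in the subicular, entorhinal or cortical class and the deep-layer class. The name of the lowest class does not settle whether its nuclei are subicular or cortical. Thinned to equal depth, 97.7% of heterozygote and 97.6% of wild-type nuclei of CA3 had a Zbtb20 UMI, against 80.5% of heterozygote and 79.6% of wild-type nuclei of CA1 and 12.3% of heterozygote and 10.5% of wild-type nuclei of the subicular class.

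Trps1, at chr15:50654752-50890463, was highest in CA3. In CA3 nuclei it reached 2422 CPM (2374 to 2470.1) in the heterozygote and 1974 CPM (1925 to 2024) in the wild type, and every CA3 nucleus of both libraries had a UMI. The CA2/CA3 cluster had 876 CPM (847 to 906) in the heterozygote and 888 CPM (861 to 915) in the wild type, and CA1 had 119 CPM (113 to 126) in the heterozygote and 98.9 CPM (92.9 to 105) in the wild type. Granule nuclei, which contact CA3 through their axons, had 58.4 and 61.7 CPM in the heterozygote and the wild type. The order CA3, CA2/CA3, CA1 held in both libraries, and the intervals of these fields did not overlap. Outside the pyramidal fields, astrocytes were at 1542 CPM (1467 to 1619) in the heterozygote and 1539 CPM (1454 to 1628) in the wild type and inhibitory neurons at 426 CPM (408 to 446) in the heterozygote and 394 CPM (378 to 411) in the wild type. Its level in oligodendrocytes, 331 and 305 CPM, and in their precursors, 355 and 323 CPM, overlapped within counting error in each library.

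Bcl11b, at chr12:107910403-108003602, ran opposite to Trps1 over the classes (r = -0.88 over the 22 values, the most negative of the 36 pairs). It was at 238 CPM (217 to 259) in the heterozygote and 224 CPM (209.8 to 239) in the wild type in the subicular class and at 223 CPM (216 to 231) in the heterozygote and 219 CPM (210.4 to 228) in the wild type in granule nuclei, and these intervals overlapped. Deep-layer nuclei, at 188 and 194 CPM in the heterozygote and the wild type, and CA1, at 178 CPM (170.3 to 187) in the heterozygote and 181 CPM (173 to 189) in the wild type, followed with overlapping intervals. CA3 was the lowest class in both libraries, at 15.4 CPM (11.8 to 19.7) in the heterozygote and 23.3 CPM (18.3 to 29.3) in the wild type, although CA3 nuclei were deep (median 16834 UMIs in the heterozygote and 13706 in the wild type). The thinned share of nuclei with a Bcl11b UMI was 1.84% of heterozygote and 1.91% of wild-type nuclei in CA3, below the 8.42% of heterozygote and 6.94% of wild-type nuclei among microglia, and the part of free RNA in either value was not tested.

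Pou3f3 and Foxp1 were CA1-side genes within the excitatory fields, with different reach beyond them. Pou3f3 lies at chr1:42695768-42703176. Its only entry in the promoter table is shown because it holds, on the reverse strand, the forkhead core TGTTTAC (capitals), the letters that FOX proteins such as Foxp1 and Foxp2 can bind.
Pou3f3 promoter, chr1:42695518-42695817, strand +: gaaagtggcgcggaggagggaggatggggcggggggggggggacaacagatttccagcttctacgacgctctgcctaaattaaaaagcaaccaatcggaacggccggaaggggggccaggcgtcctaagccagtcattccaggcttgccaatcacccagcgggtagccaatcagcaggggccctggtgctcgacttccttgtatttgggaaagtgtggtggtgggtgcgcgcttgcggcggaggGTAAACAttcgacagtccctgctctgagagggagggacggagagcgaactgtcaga
This core was in 3.65% of the 32851 promoters and overlaps none of the other motifs searched. Pou3f3 was at 38.5 CPM (34.8 to 42.5) in the heterozygote and 33.9 CPM (30.5 to 37.6) in the wild type in CA1 nuclei, against 3.67 CPM (2.05 to 6.06) in the heterozygote and 2.56 CPM (1.104 to 5.04) in the wild type in CA3 and 16.98 CPM (14.98 to 19.2) in the heterozygote and 15.5 CPM (13.2 to 17.99) in the wild type in granule nuclei. Its highest class, however, was astrocytes, at 173 CPM (149 to 201) in the heterozygote and 129.5 CPM (106 to 157) in the wild type, and oligodendrocytes had 67.4 CPM (57.02 to 79.1) in the heterozygote and 46.7 CPM (36.7 to 58.6) in the wild type. Oligodendrocyte precursors had 57.3 CPM (41.1 to 77.7) in the heterozygote and 48.6 CPM (35.3 to 65.3) in the wild type. Astrocytes were thus above every neuronal class compared. The oligodendrocyte lineage was above them in level, but precursors overlapped CA1 within counting error in both libraries, and oligodendrocytes in the wild type. Microglia, at 16.3 and 16.3 CPM in the heterozygote and the wild type, were below CA1.

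Foxp1, at chr6:98925338-99522721, varied least of the 9 over the classes. CA1 had 605 CPM (589.7 to 619.8) in the heterozygote and 616 CPM (601 to 632) in the wild type and the subicular class 568 CPM (537 to 601) in the heterozygote and 609.6 CPM (586 to 634) in the wild type, with overlapping intervals. Microglia, at 541 CPM (478 to 610.2) in the heterozygote and 522 CPM (451 to 601) in the wild type, and deep-layer nuclei, at 537 CPM (508 to 567) in the heterozygote and 519 CPM (494 to 544) in the wild type, overlapped each other too. CA3 and granule nuclei were lower, at 340.2 and 363 CPM and at 276 and 271 CPM (heterozygote, then wild type, in each class). Astrocytes were the lowest, at 141 CPM (119 to 166) in the heterozygote and 138 CPM (114 to 167) in the wild type, so that the highest class was 4.29-fold the lowest in the heterozygote and 4.46-fold in the wild type.

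Among the classes ranked, Tshz2 and Foxp2 were highest in excitatory nuclei other than those of the CA fields and granule nuclei. Tshz2, at chr2:169633013-170071816, was at 1604 CPM (1554 to 1656) in the heterozygote and 1701 CPM (1656 to 1747) in the wild type in deep-layer excitatory nuclei and at 735 CPM (699 to 772) in the heterozygote and 683 CPM (657 to 709) in the wild type in the subicular class. CA3 had 1.96 CPM (0.845 to 3.86) in the heterozygote and 2.56 CPM (1.104 to 5.04) in the wild type, with 8 UMIs in each library. Its level in the CA fields and granule nuclei was thus a small share of that outside them. An excitatory cluster without a regional name, cluster 14, led by the neuropeptide S receptor gene Npsr1, carried 2173 CPM (2083 to 2266) in the heterozygote and 2208 CPM (2127 to 2291) in the wild type. Every nucleus of that cluster had a Tshz2 UMI. It combined this with 15.8 CPM in the heterozygote and 19.6 CPM in the wild type of Bcl11b and 192 CPM in the heterozygote and 111 CPM in the wild type of Zbtb20, while its Foxp1, at 686 CPM in the heterozygote and 608 CPM in the wild type, was in the range of CA1.

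Foxp2, at chr6:14901349-15441977, was also highest in deep-layer nuclei, at 166 CPM (150.5 to 184) in the heterozygote and 195 CPM (179.9 to 211) in the wild type. Oligodendrocyte precursors came next, at 154 CPM (126 to 185) in the heterozygote and 109 CPM (88.96 to 133) in the wild type, and 34.00% of heterozygote and 28.8% of wild-type nuclei of that class had a UMI. The intervals of the top 2 classes overlapped in the heterozygote and not in the wild type. Mature oligodendrocytes had one in 0.531% of heterozygote and 0.25% of wild-type nuclei, with only 9 and 2 UMIs in all. Tshz2 had the same split within the lineage, at 306 CPM (267 to 349) in the heterozygote and 189 CPM (162 to 219.6) in the wild type in precursors and 19.8 CPM (14.4 to 26.5) in the heterozygote and 17.7 CPM (11.7 to 25.5) in the wild type in mature oligodendrocytes. Both genes were therefore found in precursors and seldom in the mature cells. Foxp2 and Tshz2 had the highest correlation of the 36 pairs over the classes (r = 0.80). No Foxp2 UMI was seen in 325 heterozygote and 236 wild-type microglia. An approximate upper limit, not one of the exact intervals, is 0.923% and 1.27% of nuclei with a UMI in those libraries.

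**Figure D1:**
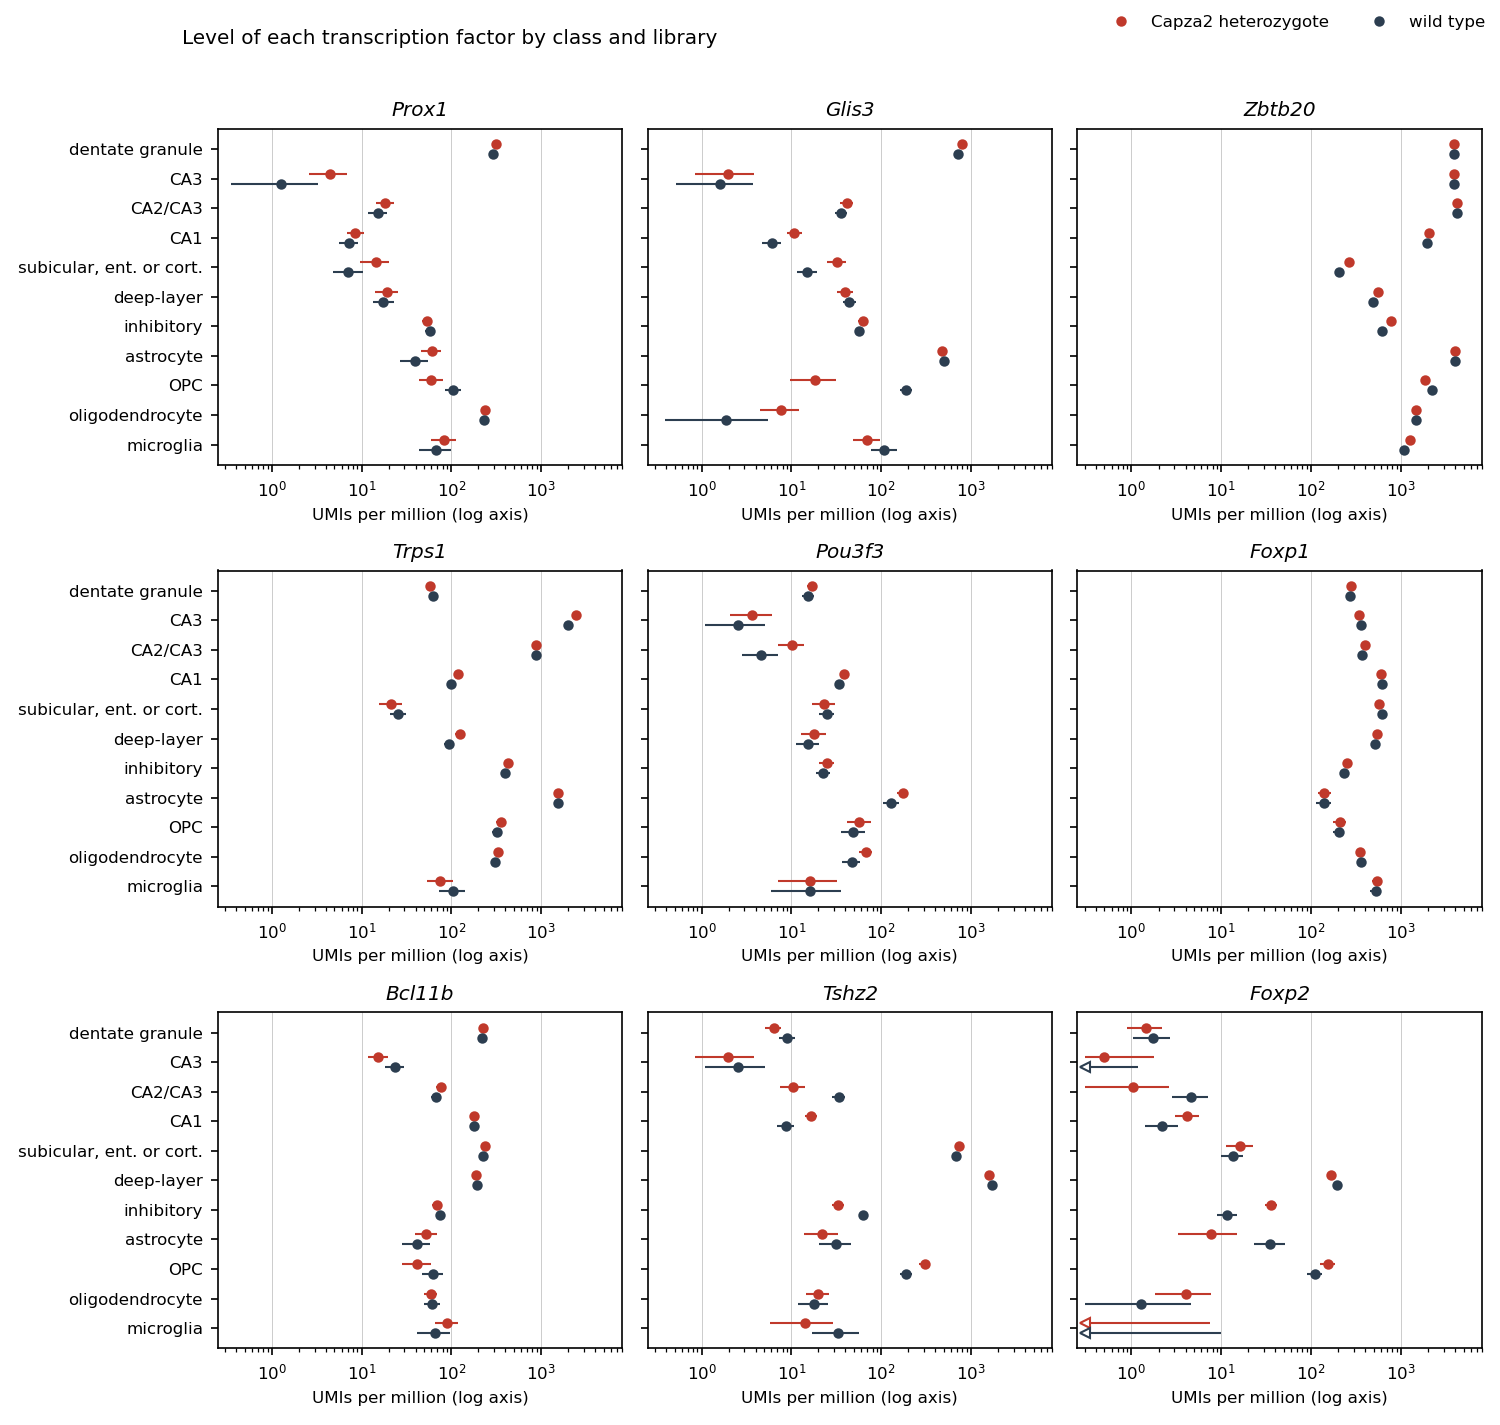
Level of each of the 9 genes, in CPM on a log axis, in 11 classes of nuclei. Points are the heterozygote (red, above) and wild-type (dark, below) libraries, bars are exact 95% counting intervals, and open triangles mark classes with no UMI. Prox1 and Glis3 peak in granule nuclei, Trps1 in CA3, and Tshz2 and Foxp2 in deep-layer nuclei, in both libraries.

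The same class was highest in both libraries for 9 of 9 genes. For 6 of the 9, in each library, the highest class was at least 4-fold above the median class on a scale of CPM plus 10 (Prox1, Glis3, Trps1, Pou3f3, Foxp2 and Tshz2). Over all genes with at least 500 UMIs, 13.8% of 11988 reached this in the heterozygote and 13.1% in the wild type. Since the 9 genes were picked with their classes known, that contrast describes the choice.

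Pyramidal fields were not uniform. The clusters were formed from other genes of the same nuclei, so differences between them are descriptions. CA1 held 2 clusters, formed without the 9 genes: cluster 4 was led by Man1a, Cpne7, Ndst3 and the proteoglycan gene Dcn, and cluster 3 by Galntl6, Nell1 and the muscarinic receptor gene Chrm3. In cluster 4, against cluster 3, Zbtb20 was at 1356 against 2597 CPM in the heterozygote and 1391 against 2514 CPM in the wild type. As a ratio of cluster 4 over cluster 3 that is log2 -0.94 (-0.98 to -0.89) in the heterozygote and -0.85 (-0.90 to -0.81) in the wild type. Bcl11b was also lower in cluster 4, at log2 -0.67 (-0.82 to -0.53) in the heterozygote and -0.60 (-0.73 to -0.46) in the wild type. Pou3f3 was lower there at log2 -0.62 (-0.93 to -0.31) in the heterozygote and -0.62 (-0.94 to -0.30) in the wild type, and Foxp1 at log2 -0.40 (-0.48 to -0.33) in the heterozygote and -0.27 (-0.34 to -0.20) in the wild type.

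Of the members with 100 UMIs or more in the pair of clusters, 6 of 7 in the heterozygote and 3 of 5 in the wild type differed by 1.5-fold or more. Among all genes 12.1% in the heterozygote and 11.5% in the wild type did so. Trps1 did not keep its direction between the libraries, at log2 0.61 (0.45 to 0.78) in the heterozygote and -0.22 (-0.40 to -0.04) in the wild type. Over CA1 as a whole, 5 heterozygote nuclei held 309 of 1227 Trps1 UMIs and 5 wild-type nuclei 63 of 1029. Without these nuclei the ratio of the heterozygote over the wild type in CA1 was -0.06, against 0.27 with them. Glis3 was higher in cluster 4 on few UMIs, with 98 UMIs there in the heterozygote and 55 in the wild type. Tshz2 had 154 and 73 UMIs in that cluster.

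On the CA3 side, cluster 9 was named CA3 and led by the adhesion gene Nectin3 and by Trps1 itself. It had Trps1 at 2422 CPM in the heterozygote and 1974 CPM in the wild type. Cluster 8, with CA2 and CA3 markers alike, had it at 876 CPM in the heterozygote and 888 CPM in the wild type. For cluster 9 over cluster 8 that is log2 1.47 (1.41 to 1.52) in the heterozygote and 1.15 (1.10 to 1.21) in the wild type. Bcl11b went the other way, at log2 -2.31 (-2.73 to -1.91) in the heterozygote and -1.52 (-1.91 to -1.15) in the wild type. Glis3 was lower too, at log2 -4.39 (-5.63 to -3.38) in the heterozygote and -4.49 (-6.14 to -3.24) in the wild type. In cluster 8 only 28 of 176 heterozygote and 31 of 250 wild-type nuclei had a Glis3 UMI. The 5 richest held 69 of 159 and 83 of 164 of these UMIs. The mean doublet score, as a fold of that over all nuclei, was 1.63 in cluster 8 and 0.54 in cluster 9. Its part in the Glis3 difference was not tested. Zbtb20 differed little, at log2 -0.12 (-0.15 to -0.09) in the heterozygote and -0.08 (-0.12 to -0.05) in the wild type, and Foxp1 was at log2 -0.23 (-0.34 to -0.12) in the heterozygote and -0.03 (-0.14 to 0.07) in the wild type. In this pair 3 of 5 members in the heterozygote and 4 of 6 in the wild type passed 1.5-fold, against 12.3% and 12.7% of all genes.

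The deep-layer class also held 2 clusters. The mean log2 ratio of its markers was 1.787 in cluster 17 and only 0.603 in cluster 16, with a minimum of 0.5 for an excitatory name. None of these markers was among the leading genes of either cluster. The same marker list was at 3994 CPM in the heterozygote and 3630 CPM in the wild type in CA3, so it is not confined to this class. Cluster 17 had Foxp2 at 268 CPM in the heterozygote and 332 CPM in the wild type and Tshz2 at 650.3 CPM in the heterozygote and 539 CPM in the wild type. Cluster 16 had the reverse weighting, Foxp2 at 104 CPM in the heterozygote and 97.9 CPM in the wild type and Tshz2 at 2184 CPM in the heterozygote and 2524 CPM in the wild type. As a log2 ratio of cluster 17 over cluster 16, Foxp2 was at log2 1.36 (1.07 to 1.66) in the heterozygote and 1.76 (1.51 to 2.02) in the wild type. Tshz2 was at log2 -1.75 (-1.88 to -1.62) in the heterozygote and -2.23 (-2.34 to -2.11) in the wild type. Both genes are among the leading genes of one of these clusters. Zbtb20 was lower in cluster 17, at log2 -1.30 (-1.51 to -1.11) in the heterozygote and -1.56 (-1.75 to -1.38) in the wild type, and so was Bcl11b, at log2 -0.92 (-1.24 to -0.60) in the heterozygote and -0.84 (-1.10 to -0.58) in the wild type. Here 4 of 6 and 5 of 7 members passed 1.5-fold, against 20.4% and 16.2% of all genes, in the heterozygote and the wild type.

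**Figure D2:**
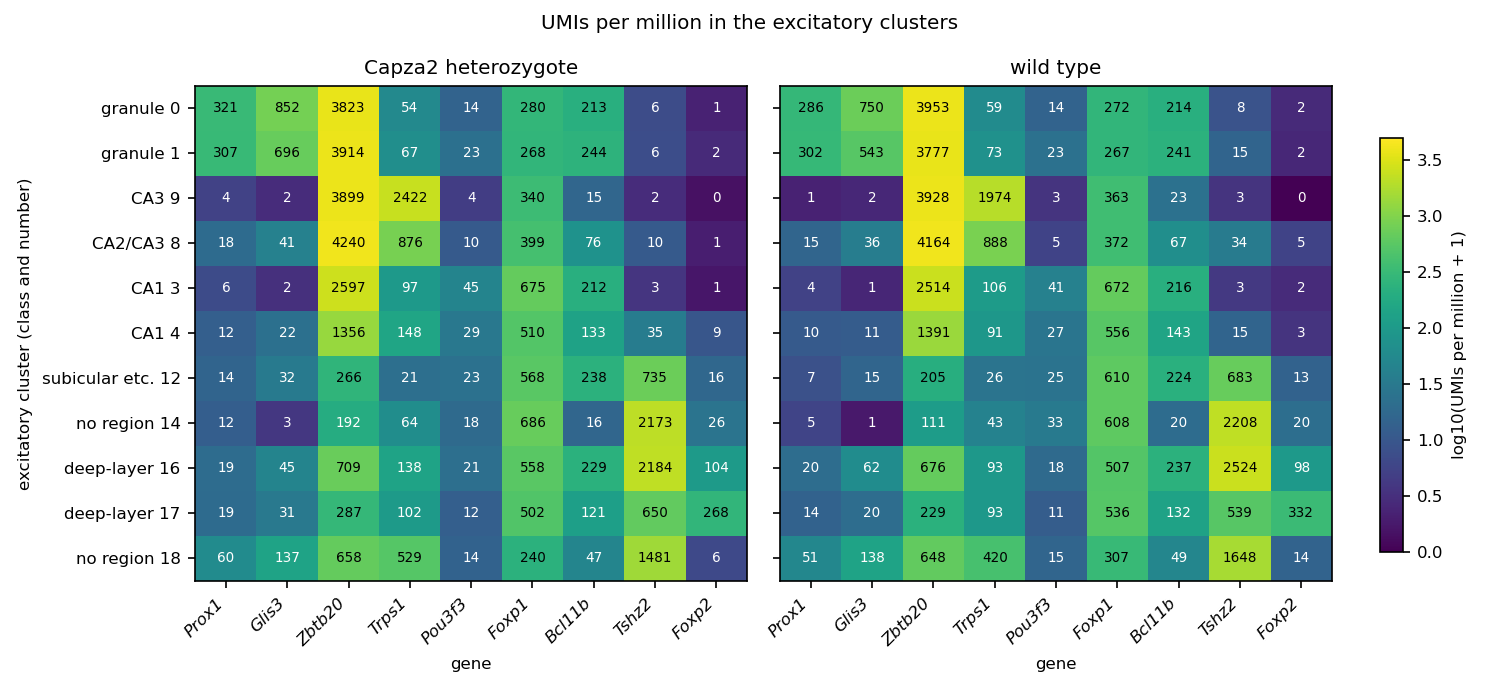
CPM of the 9 genes (columns) in 11 excitatory clusters (rows), in the heterozygote (left) and the wild type (right), with colour on a log10 scale of CPM plus 1. Trps1 is highest in CA3 cluster 9, Bcl11b is low there and in cluster 14, and Foxp2 and Tshz2 exchange rank between deep-layer clusters 17 and 16.

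Inhibitory neurons held 3 clusters. Cluster 10 was led by Kcnmb2, Nxph1 and the somatostatin gene Sst, cluster 19 by Vip, Adarb2 and the cannabinoid receptor gene Cnr1, and cluster 20 by Hapln1 and Reln. Prox1, which is known in mouse interneurons born in the caudal ganglionic eminence, was at 91.6 CPM in the heterozygote and 112 CPM in the wild type in cluster 19, 52.9 CPM in the heterozygote and 73.1 CPM in the wild type in cluster 20 and 35.5 CPM in the heterozygote and 30.7 CPM in the wild type in cluster 10. Trps1 had another order, with 759.7 CPM in the heterozygote and 554 CPM in the wild type in cluster 20, 449 CPM in the heterozygote and 438 CPM in the wild type in cluster 10 and 227 CPM in the heterozygote and 187 CPM in the wild type in cluster 19. No single order of the clusters covered these genes. Bcl11b was highest in cluster 20 as well, at 176 CPM in the heterozygote and 158 CPM in the wild type, against 58.2 CPM in the heterozygote and 64.3 CPM in the wild type in cluster 19 and 50.4 CPM in the heterozygote and 58.7 CPM in the wild type in cluster 10.

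For each gene, the genes most like it over the 22 class values were named by Pearson's r of log2(CPM + 10), among genes with at least 500 UMIs. Several are transcripts of the same locus. Prox1 was most like Prox1os (r = 0.93) and Stxbp6 (r = 0.92), and Prox1os is annotated antisense to it. Zbtb20 was most like Gm9968 (r = 0.97) and Gm15713 (r = 0.86), both annotated antisense within it. How the authors' counting treated strand was not known here, so such pairs, and Glis3, Pou3f3 and Foxp1, which each overlap a counted gene on their own strand, are uncertain in how reads were divided. Pou3f3 was most like Pantr2 (r = 0.93) and Ptn (r = 0.91), and Trps1 most like Nectin3 (r = 0.91) and Adamts9 (r = 0.80), of which Nectin3 is among the CA3 markers used for naming. Glis3 went with Slc4a4 (r = 0.92) and C330002G04Rik (r = 0.90), Foxp1 with Slc8a1 (r = 0.89) and Rapgef6 (r = 0.86), Bcl11b with Kcnj9 (r = 0.94) and Fam81a (r = 0.93), Tshz2 with Gm49906 (r = 0.91) and Grm4 (r = 0.90) and Foxp2 with Sulf1 (r = 0.90) and Grk5 (r = 0.89).

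A gene was counted as past the fold between the libraries when its class sums differed by 1.5-fold or more and held at least 100 UMIs over both libraries. Of 71 pairs of a member and a class that met the minimum, 5 were higher and 5 lower in the heterozygote by this rule. Among all genes the share past the fold ran by class from 1.61% in granule nuclei to 12.7% in oligodendrocyte precursors. Over all nuclei 0 of 9 members passed the fold, against 2.22% of 16155 genes. Their ratios over all nuclei ran from -0.55 for Tshz2 to 0.48 for Glis3, while granule nuclei made up 30.6% of heterozygote and 24.5% of wild-type nuclei. With each library clustered separately, 3 ratios passed the fold in the class where the gene is highest in the main clustering. They were Bcl11b in the subicular class at -2.45, Pou3f3 in astrocytes at 1.07 and Foxp2 in deep-layer nuclei at -0.89. Under that setting Bcl11b was highest in deep-layer nuclei in the heterozygote and in granule nuclei in the wild type. Foxp2 was then highest in oligodendrocyte precursors in the heterozygote. In the pooled values over all nuclei, more nuclei of a type and more RNA per nucleus cannot be told apart.

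In granule nuclei 0 of 8 members passed the fold, against 1.61% of 11803 genes. Prox1 (log2 ratio 0.13, 0.06 to 0.19) and Glis3 (0.17, 0.13 to 0.21) were slightly higher in the heterozygote, and Zbtb20 (-0.03, -0.04 to -0.01), Bcl11b (0.03, -0.05 to 0.10) and Foxp1 (0.03, -0.04 to 0.09) were near 0. Over the other settings tried, Prox1 there ranged from 0.12 to 0.28 and Glis3 from 0.16 to 0.23. Granule nuclei held clusters 0 and 1, and cluster 1 made up 45.6% of them in the heterozygote and 29.4% in the wild type. Prox1 was at 0.16 (0.09 to 0.24) in cluster 0 and 0.02 (-0.12 to 0.16) in cluster 1. Glis3 was at 0.19 (0.14 to 0.23) in cluster 0 and 0.36 (0.26 to 0.46) in cluster 1. The part of this mix in the pooled ratios was not tested. In CA3 Trps1 was higher in the heterozygote (log2 ratio 0.29, 0.25 to 0.34), which is under the fold, and its ratio was 0.23 to 0.36 over the other settings. Bcl11b, with 63 heterozygote and 73 wild-type UMIs, was the 1 of 4 members past it in CA3 (log2 ratio -0.60, -1.11 to -0.09), against 2.43% of 7269 genes. It remained past the fold in 4 of 13 other settings.

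In CA1, 2 of 8 members were past the fold, against 1.9% of 10995 genes. They were Glis3 (10.8 and 6.05 CPM, log2 ratio 0.83, 0.37 to 1.30) and Tshz2 (16.5 and 8.65 CPM, log2 ratio 0.93, 0.55 to 1.32), neither of them a CA1 gene. A UMI of Glis3 was in 25 of 794 heterozygote and 24 of 924 wild-type nuclei. Those nuclei had the granule markers at 1501 and 1170.3 CPM, against 498 and 510.4 CPM in CA1 nuclei without Glis3 (heterozygote, then wild type, in both). Without the 5 nuclei of each library richest in the gene the ratios were 0.52 for Glis3 and 0.58 for Tshz2. Glis3 was past the fold in 8 of 13 other settings and Tshz2 in 7 of 13, with Tshz2 turned to -0.21 in the largest CA1 cluster alone. Foxp1, whose highest class is CA1, was under the fold (-0.03, -0.08 to 0.02). So were Zbtb20 (0.06, 0.04 to 0.09), Bcl11b (-0.02, -0.11 to 0.07) and Pou3f3 (0.18, -0.03 to 0.39), which are higher in other classes than in CA1.

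In the CA2/CA3 cluster Tshz2 was the 1 of 7 past the fold (10.3 and 33.8 CPM, log2 ratio -1.71, -2.25 to -1.20), against 4.07% of 8158 genes. A single wild-type nucleus held 71 of its 154 UMIs, and the ratio was -0.12 with doublets kept. In the subicular class Glis3 was the 1 of 7 (32.4 and 15.1 CPM, log2 ratio 1.10, 0.59 to 1.62), against 3.69% of 7102 genes, from 12 heterozygote and 11 wild-type nuclei. Those nuclei had median doublet scores of 0.138 and 0.106, against 0.041 and 0.0314 in the others of their library. The ratio was past the fold in 11 of 13 other settings and 0.11 with at least 1000 genes required. In cluster 14 Zbtb20 was the 1 of 4 past it (log2 ratio 0.80, 0.48 to 1.12, and 0.41 without the 5 richest nuclei), against 3.05% of 3766 genes. In deep-layer nuclei it was 0 of 8, against 2.67% of 7001 genes, with Foxp2 at -0.23 (-0.41 to -0.05) and Tshz2 at -0.08. Foxp2 lies 2.194 Mb from Capza2 on the same chromosome.

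In inhibitory neurons 2 of 9 members passed the fold, against 1.98% of 9463 genes. Foxp2 was at 35.8 CPM (30.6 to 41.7) in the heterozygote and 11.6 CPM (8.95 to 14.8) in the wild type (log2 ratio 1.62, 1.20 to 2.06), and Tshz2 at 33.2 CPM (28.2 to 38.9) in the heterozygote and 62.7 CPM (56.2 to 69.7) in the wild type (log2 ratio -0.92, -1.20 to -0.64). A UMI of Foxp2 was found in 17 of 321 heterozygote and 19 of 448 wild-type nuclei, and the 5 richest held 143 of 166 and 45 of 64 UMIs. Without them its ratio was 0.52, and it was 0.19 with at least 1000 genes required. By cluster, Foxp2 had 106 UMIs in the heterozygote and 6 in the wild type (log2 ratio 4.21, 3.04 to 5.69) in cluster 19, where 2 heterozygote nuclei held 57 and 47 of those UMIs. In cluster 10 it had 58 UMIs in the heterozygote and 57 in the wild type (log2 ratio 0.28, -0.28 to 0.83). Nuclei with Foxp2 had the 6 deep-layer markers at 1573 CPM in the heterozygote and 1641 CPM in the wild type. Those without it had 1096 and 908 CPM. In the heterozygote 1 nucleus, with 328355 UMIs in all and 5 of Foxp2, held 616 of the 963 marker UMIs. The 2 nuclei with 57 and 47 Foxp2 UMIs had 2 marker UMIs among 10654 and 14 among 21328. The part of these markers in the result was not tested. For Tshz2 the direction turned, to 0.71, when the automatic doublet threshold was used, which changed the barcodes removed in the wild type only. Zbtb20 had a higher sum in the heterozygote but under the fold (log2 ratio 0.34, 0.28 to 0.41). The 5 richest nuclei held 1502 of 3640 heterozygote and 884 of 3407 wild-type UMIs of Zbtb20. Without them its ratio was 0.009, and it ranged from -0.29 to 1.22 over the other settings, so no direction is read from it.

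Oligodendrocyte precursors had the most members past the fold, 3 of 7, but also the highest share of all genes past it, 12.7% of 3188 genes. Glis3 was at 18.2 CPM (9.67 to 31.1) in the heterozygote and 188 CPM (161 to 218) in the wild type (log2 ratio -3.37, -4.31 to -2.56), Prox1 at 60.1 CPM (43.5 to 80.95) in the heterozygote and 104 CPM (83.99 to 127) in the wild type (log2 ratio -0.79, -1.35 to -0.26) and Tshz2 at 306 CPM (267 to 349) in the heterozygote and 189 CPM (162 to 219.6) in the wild type (log2 ratio 0.70, 0.40 to 0.99). Glis3 came from 4 of 200 heterozygote and 26 of 198 wild-type nuclei. The 26 wild-type nuclei had a median of 10626 UMIs and a median doublet score of 0.12, against 3056 UMIs and 0.00634 in the other wild-type precursors. The few wild-type nuclei with Glis3 were deeper and scored higher as doublets than the rest. They had the granule markers at 3523 CPM, against 845 CPM in the others.

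Over the whole class these markers were at 703 CPM in the heterozygote and 1798 CPM in the wild type, with 0 of 7 at 0 in either library, and their part in these ratios was not tested. Rfx3, one of them, was at 207 CPM in the heterozygote and 689 CPM in the wild type (log2 ratio -1.74, -2.004 to -1.47). Glis3 stayed past the fold in 12 of 12 other settings that gave a value, from -3.40 to -0.99, with the smallest difference when doublets were kept, and Prox1 in 9 of 13. The share of precursors with a Tshz2 UMI, in contrast, was alike, 48.00% of heterozygote and 50.00% of wild-type nuclei. Its ratio was past the fold in 8 of 13 other settings and 0.56 without the 5 richest nuclei.

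**Figure D3:**
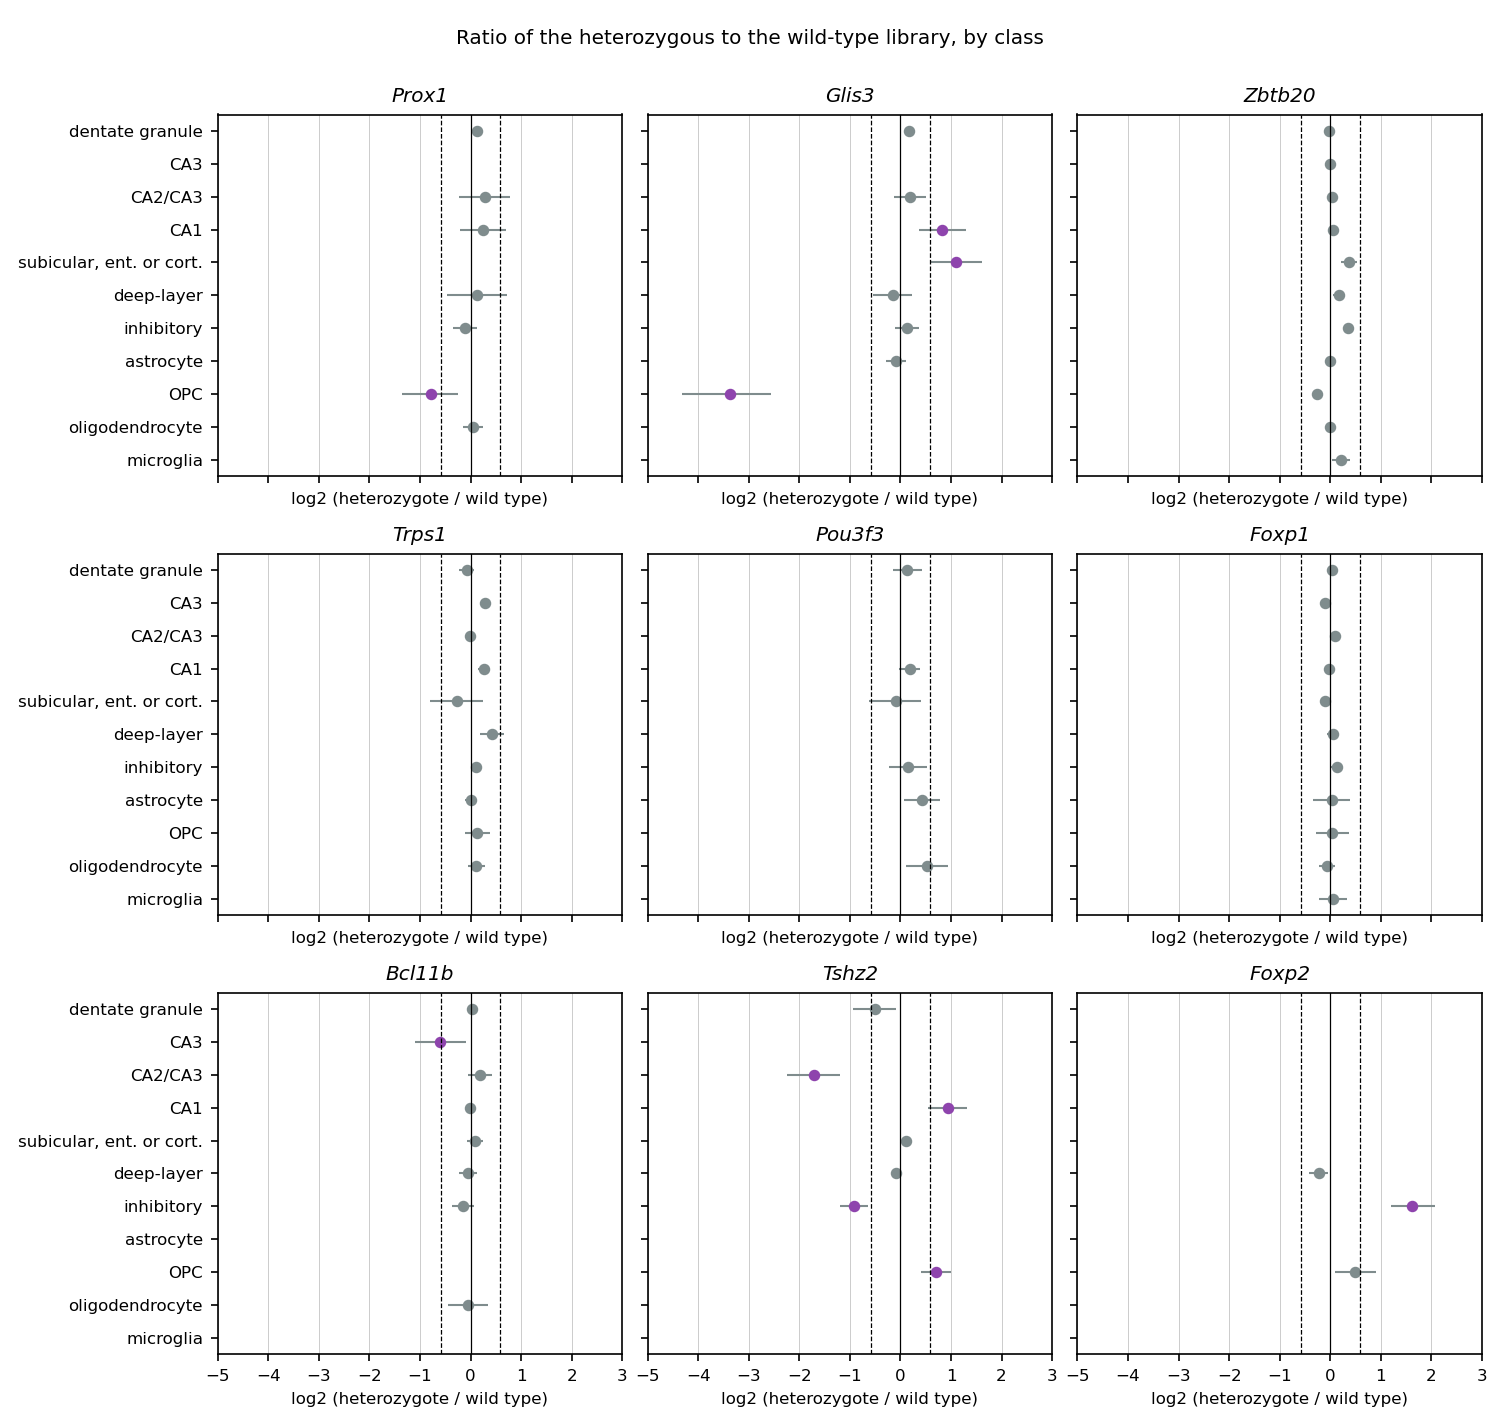
Log2 ratio of the heterozygote over the wild type for each gene in each class with at least 100 UMIs over both libraries. Bars are exact 95% counting intervals, dashed lines mark 1.5-fold, and purple points are the 10 ratios past it. Ratios in the class where a gene is highest lie within the dashed lines for all 9 genes in the clustering shown.

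In the other glia none of the members passed the fold, with 0 of 5 in astrocytes, against 5.34% of 3559 genes, 0 of 6 in oligodendrocytes, against 2.38% of 6214 genes, and 0 of 2 in microglia, against 3.9% of 2002 genes. Pou3f3 was higher in the heterozygote in both astrocytes (log2 ratio 0.42, 0.06 to 0.78) and oligodendrocytes (log2 ratio 0.53, 0.12 to 0.95), and in 5 of the 6 classes where it met the minimum, all but the subicular one. Its intervals in CA1 (-0.03 to 0.39), granule nuclei (-0.15 to 0.42) and inhibitory neurons (-0.23 to 0.53) included 0. In inhibitory neurons the ratio ranged from -1.20 to 0.30 over the other settings. All these classes come from the same 2 libraries. Zbtb20, Trps1 and Glis3 in astrocytes were at -0.01, 0.003 and -0.09.

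**Figure D4:**
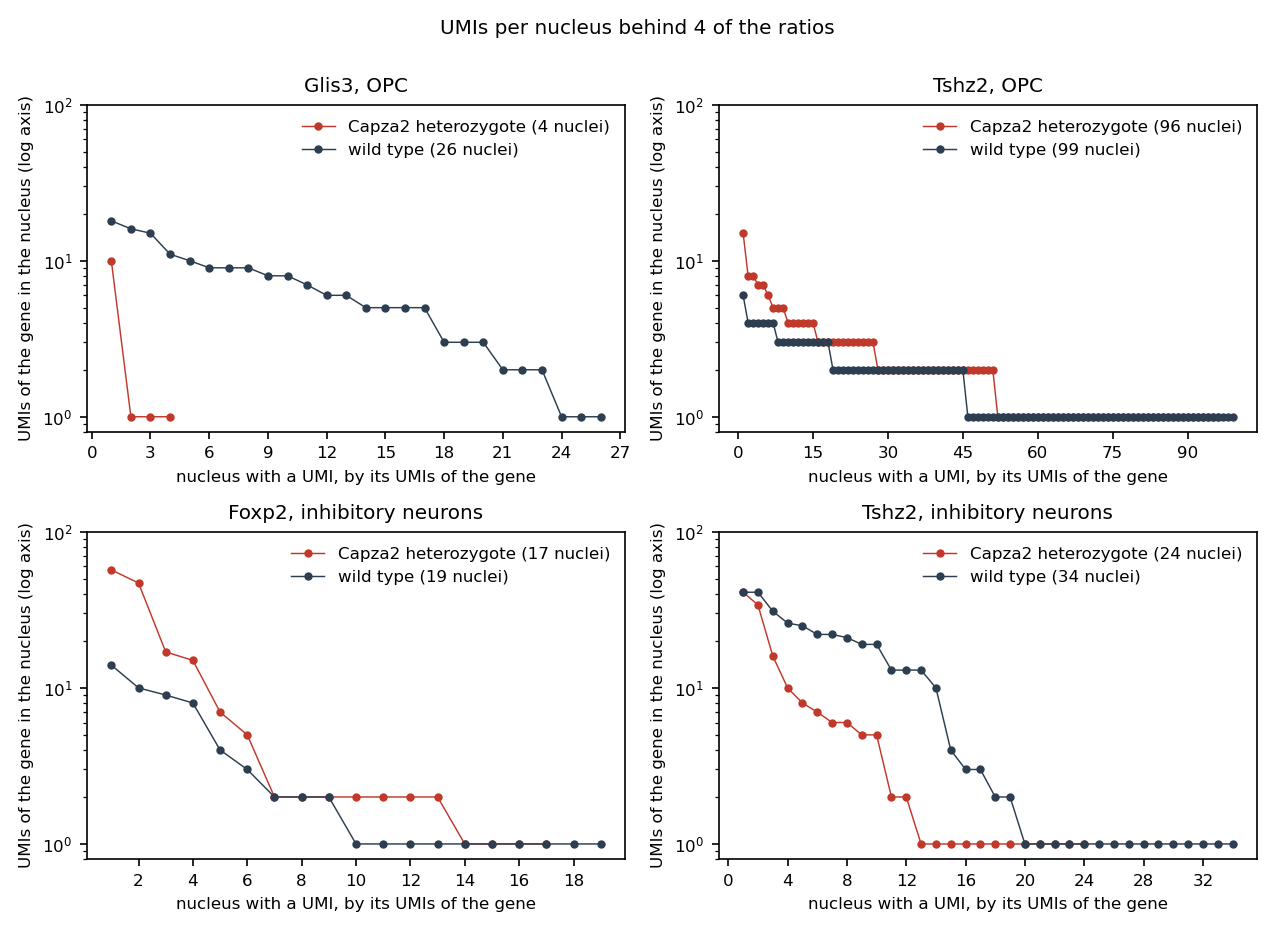
UMIs of a gene in each nucleus that had at least 1, ranked by that number, on a log axis, for Glis3 and Tshz2 in oligodendrocyte precursors (OPC) and Foxp2 and Tshz2 in inhibitory neurons. Red is the heterozygote and dark blue the wild type. Glis3 in precursors and Foxp2 in inhibitory neurons come from 4 to 26 nuclei per library, while Tshz2 in precursors is spread over 96 and 99.

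Other transcription factors were read from 4 lists in the same classes. Counted as pairs of a gene and a class past the fold, the paralogues of the 9 genes had 0 higher and 1 lower of 38, other factors of excitatory neurons 9 higher and 8 lower of 232, factors of interneurons 1 higher and 4 lower of 34 and factors of glia 2 higher and 0 lower of 60. Over all genes the share past the fold was 1.61% to 12.7% by class. The paralogues had patterns of their own. Pou3f2, the close relative of Pou3f3, was highest in astrocytes too (73.8 and 71.7 CPM in the heterozygote and the wild type), and Tshz3, a relative of Tshz2, in deep-layer nuclei (159.7 and 176 CPM). Glis1 was highest in oligodendrocyte precursors (23.8 and 25.4 CPM), where Glis3 differed between the libraries. Among factors of excitatory neurons Rorb, known from layer 4 of the cortex, was highest in astrocytes (2142 and 2094 CPM) and St18 in oligodendrocytes (4326 and 4538 CPM). Besides Rfx3, given above, Nr3c2, the mineralocorticoid receptor gene, was at 162 CPM in the heterozygote and 407 CPM in the wild type (log2 ratio -1.33, -1.64 to -1.02) in the precursors. Sox6, a factor of interneurons on the list, was at 7.07 CPM in the heterozygote and 27.9 CPM in the wild type (log2 ratio -1.98, -2.82 to -1.22) in deep-layer nuclei. In the CA2/CA3 cluster Rorb was at 28.9 CPM in the heterozygote and 8.12 CPM in the wild type (log2 ratio 1.83, 1.29 to 2.41). For the glial list, Sox10, a factor of the oligodendrocyte lineage, was at 217 CPM in the heterozygote and 145 CPM in the wild type (log2 ratio 0.58, 0.24 to 0.93) in precursors, under the fold, and Sox2 in astrocytes at 87.2 CPM in the heterozygote and 49.04 CPM in the wild type (log2 ratio 0.83, 0.27 to 1.41).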

How the data were processed

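Nuclear RNA of 2 libraries, 1 Capza2 heterozygote and 1 wild type, was measured by 10x 3′ sequencing. The deposited values are raw UMI counts per gene and barcode, made by the authors with Cell Ranger 7.1.0 on mm10, per the submitters' processing notes. From the deposited counts, barcodes with at least 500 genes and at most 5% mitochondrial UMIs were kept. The highest Scrublet scores were removed in each library, at 0.8% per 1000 barcodes, which took out 450 heterozygote and 335 wild-type barcodes. The automatic threshold marked 5 heterozygote and 625 wild-type barcodes. The heterozygote share, 0.0693% of barcodes past the filters, was under a set minimum of 0.5%. The setting with the automatic threshold therefore kept the removal of 450 heterozygote barcodes and removed 625 in the wild type.

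Nuclei of both libraries were clustered together on 2000 variable genes, leaving out the 9 members, Capza2, mitochondrial, ribosomal and sex-linked marker genes (30 components, 15 neighbours, Leiden resolution 1, scanpy 1.11.5, leidenalg 0.10.2, Python 3.11.15). A cluster took the name of the marker list with the highest mean log2 ratio, with at least 3 markers detected. This naming rule was settled after the clusters were seen, so a difference from the study may come from rebuilt names. UMIs were summed per class and library and divided by the class total (CPM). Intervals are exact at 95%, Poisson for levels, binomial for shares and conditional binomial for ratios (scipy 1.17.1), and cover counting error only, not spread between mice, preparations or nuclei. Nuclei are not replicates, so no p-value was computed. Genes named beside the members were the 2 most correlated with each, and listed factors with the largest ratio or the sharpest pattern. Gene positions are from GENCODE M21 on GRCm38. The members and lists were chosen with earlier results of these data known.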

Additional observations from a re-analysis of the deposited data

How the results depend on the processing

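No paired analysis was possible because each genotype has 1 library and no result comes from a test. Counts of member and class pairs past 1.5-fold, 5 higher and 5 lower in the heterozygote, moved with the minimum, with thinning and with the handling of doublets. They were 11 higher and 8 lower with a minimum of 20 UMIs, 0 and 1 with 400, and 9 and 16 thinned to 1000 UMIs. With the automatic doublet threshold, applied in the wild type only, the counts were 13 and 1, and with doublets kept 7 and 2. They were 4 and 3 with each nucleus weighted alike, 2 and 4 in the largest cluster of each class, 3 and 4 with at least 1000 genes, 3 and 6 with the members among the variable genes, 5 and 3 at resolution 2, and 9 and 8 with each library clustered separately. The share of all genes past the fold is not given for these settings, so the counts have no background beside them. Size factors, resolution 0.5 and leaving out the 5 richest nuclei, an alternative chosen after seeing the data, kept both counts within 1.5 times. Of the ratios past the fold, Tshz2 changed sign in CA1 (-0.21, largest cluster) and in inhibitory neurons (0.71, automatic doublet threshold). Of 1081 alternative values, 890 lay inside the interval of the main value and the others outside it, apart from these 2. Ratios under the fold changed sign more often, with 95 values of 43 results in all having the other sign, such as Bcl11b in the subicular class (-2.45 with separate clustering, 0.08 in the main clustering). The causes were not tested. The highest class was the same in both libraries for 9 of 9 members under most settings, for 8 in the largest cluster and with doublets kept, and for 6 with separate clustering. That class could itself change with the setting. Bcl11b was highest in granule nuclei in both libraries with the automatic doublet threshold, doublets kept, at least 1000 genes and resolution 0.5. Zbtb20 was highest in astrocytes in both libraries at resolution 0.5. Depth limits the low levels: members with a few UMIs in a class, such as Prox1 in CA3, carry intervals several-fold wide. Without replicate libraries, none of the ratios can be set against the spread between mice.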
